A study of Homo sapiens with 5 samples.

Results

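The transcriptome of control HCT116 cells was described from 3 of the 5 RNA-seq libraries of a study of LT4, a compound tested on colorectal cancer cells. The 3 libraries, named control 1 to 3 here, were chosen because their titles label them as control; the other 2 were treated with LT4 and were not used. HCT116 is an established human colon carcinoma line, grown as 1 cell type in culture, and every library of the study came from it. The labels do not state what the control cells received in place of LT4. They also do not say whether the 3 libraries came from separate cultures, so the spread given below may be technical.

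HCT116 cells grow fast and are poorly differentiated. The line is known for an activating mutation of PIK3CA, a stabilising mutation in 1 allele of CTNNB1 (beta-catenin) and a loss of DNA mismatch repair. Normal colon epithelium renews from stem cells at the crypt base under Wnt signalling, and their progeny become absorptive colonocytes, mucus-making goblet cells or hormone-making enteroendocrine cells. The RNA level of a gene in a culture of 1 cell type is a mean over its cells, in which fewer expressing cells and less RNA per cell cannot be told apart.

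Levels are given as the authors' TPM (transcripts per 1000000, which is scaled to gene length), with values in the order control 1, 2 and 3. TPM recomputed from counts and the length of all annotated exons was close to it (median log2 ratio 0.018 in control 1). Orders and ratios between genes therefore depend on the annotated length, which can differ from that of the transcript made. The libraries held 12296916, 11954776 and 11653484 counts in genes. A nuclear protein-coding gene was called expressed when it reached 1 TPM in every control, and not detected when the 3 libraries together held 3 or fewer counts. A total of 3 counts in the 35905176 counts of the 3 libraries corresponds to 0.0836 CPM (counts per 1000000), which is the limit that a count of 0 allows; this limit covers counting error only.

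By this rule 10377 of 19903 nuclear protein-coding genes (52.1%) were expressed, 6399 (32.2%) were not detected and 3127 lay between. The 52.1% is the background for the counts of expressed list members given below, and the 32.2% that for members not detected. There was no count in any control for 4979 genes. The threshold cuts through a continuous range, with 134 genes whose lowest value lay from 1 to 1.1 TPM and 176 whose lowest value lay from 0.9 to 1 TPM. Among the expressed genes the median of the mean TPM was 12.3, with quartiles of 4.47 and 38.9. Only 1098 genes reached 100 TPM and 94 reached 1000 TPM in every control, and 214 genes (1.08%) held 50% of all TPM in nuclear coding genes.

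The most abundant nuclear coding RNA was TMSB10, which encodes a small peptide that binds monomeric actin. Its level was 15462, 16196 and 18196 TPM. Its relative TMSB4X was at 201, 154 and 201 TPM, so the TMSB10 level was 90.9 ± 14.1 times that of TMSB4X (SD, n = 3). GAPDH, a glycolytic enzyme, followed at 15720.3, 16534 and 13994 TPM. The ranges of TMSB10 and GAPDH overlapped, so their order is not resolved.

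Both chains of ferritin, the iron store of the cell, came next among the non-ribosomal genes. The light chain FTL was at 11059, 11583 and 11211 TPM. The heavy chain FTH1 was at 9086, 10110.4 and 10626 TPM. The highest FTH1 value, in control 3, stayed below the lowest FTL value. This order rests on annotated exon lengths of 2030 bases for FTH1 and 878 for FTL. In counts FTH1 was above FTL, at 268869 against 132667 over the 3 controls. The cytosolic chaperone HSP90AB1 stood at 7964, 7606 and 6527 TPM, and its stress-inducible partner HSP90AA1 at 845, 648 and 758 TPM.

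S100A6, a calcium-binding protein, was at 6499, 7586 and 7951 TPM and was lowest in control 1. The non-muscle actin ACTG1 was at 6917, 6437 and 5882 TPM and ACTB at 4340.4, 4009.9 and 4158 TPM, and every ACTG1 value was above every ACTB value. HMGA1, a chromatin protein of embryonic and tumour cells that bends AT-rich DNA, was at 5324, 5079.7 and 4373 TPM. It was 829 ± 125 times (SD, n = 3) the level of its paralogue HMGA2. The remaining members of the top 30 were ubiquitin (UBB), translation factors EEF1A1 and EEF2, tubulins TUBB and TUBA1B, the chaperone HSPA8, the keratins KRT19, KRT8 and KRT18, S100A4 and ribosomal proteins.

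**Figure D1:**
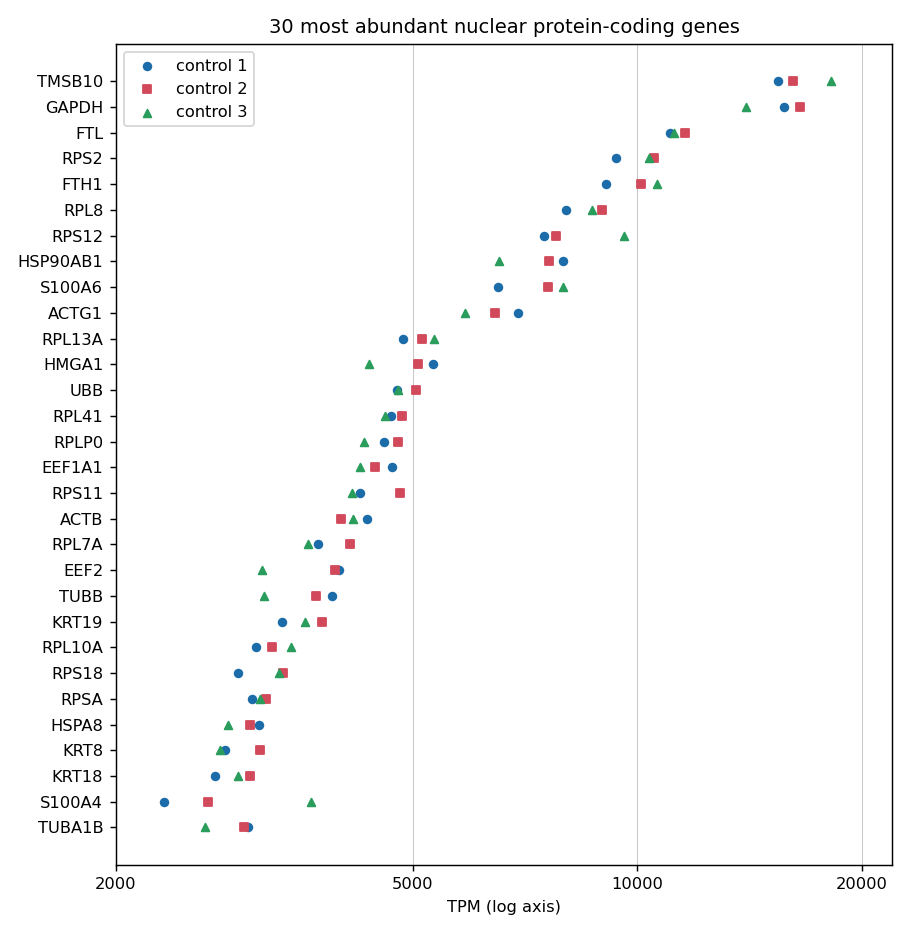
TPM on a log axis for the 30 nuclear protein-coding genes with the highest mean over 3 controls, 1 row per gene and 1 symbol per library. Of the 29 neighbouring pairs in the order, 25 had overlapping ranges, and S100A4 showed the widest relative range, from 2317 to 3647 TPM.

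The rank of most of these genes is not resolved by 3 libraries. The 30 genes lay at a mean of 2866 TPM or above with a median coefficient of variation (CV, SD over mean) of 6.96%. Control 2 held the highest value for 14 of the 30, control 1 for 9 and control 3 for 7. The 10 most abundant genes held 9.76%, 10.3% and 10.3% of all TPM.

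Ribosomal protein genes made up 11 of the top 30 and 27 of the top 60. All 79 listed cytosolic ribosomal proteins were expressed, and together they held from 12.1% of TPM in control 1 to 13.1% in control 3. In this set 42 genes had a mean of 1000 TPM or more, led by RPS2 at 9379.9, 10542 and 10360.4 TPM, RPL8 at 8034, 8963 and 8703 TPM and RPS12 at 7493, 7783 and 9589.6 TPM. Levels were uneven, and 7 members were below 100 TPM. The lowest were RPL36A at 1.89, 1.25 and 1.62 TPM and RPS10 at 2.01, 2.54 and 3.47 TPM. Processed pseudogenes, which are near-identical copies of such RNAs, held 5.25 ± 0.258% of TPM (SD, n = 3), and 69.6% of that was in copies of ribosomal protein genes. RPL36AP37, a copy of RPL36A, was listed at 1426, 1292 and 1545 TPM, and RPS28P7 at 5102, 5102 and 6519 TPM. Reads from a gene and its near-identical copy cannot be told apart here, so the level of a single ribosomal protein gene is uncertain.

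Messages for ribosomal proteins and elongation factors are known to begin with a C followed by a run of pyrimidines, the TOP (terminal oligopyrimidine) motif, through which mTOR signalling controls their translation. The starts of 8 of the most abundant such genes and of 3 abundant genes of other classes are shown for this reason (RefSeq, GRCh38.p14). They run from 20 bases before to 10 bases after the annotated start. A pyrimidine run is in capitals where a C and 5 pyrimidines lie within 5 bases of the start. Capitals start at a C no earlier than 5 bases before the start and can continue past the window. In RPL10A, TMSB10 and FTL fewer bases of a run lie inside the window, so these runs are not in capitals.
RPS12 (chr6:132814549-132814578, plus strand): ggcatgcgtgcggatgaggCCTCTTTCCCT
RPL13A (chr19:49487588-49487617, plus strand): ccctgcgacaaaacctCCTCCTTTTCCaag
RPL41 (chr12:56116613-56116642, plus strand): gtagacggaacttcgCCTTTCTCTCggcct
RPLP0 (chr12:120201102-120201131, minus strand): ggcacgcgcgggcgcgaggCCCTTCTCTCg
EEF1A1 (chr6:73521023-73521052, minus strand): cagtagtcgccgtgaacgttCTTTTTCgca
RPL7A (chr9:133348198-133348227, plus strand): attacccacaattccCTTTCCTTTCTCTCT
EEF2 (chr19:3985454-3985483, minus strand): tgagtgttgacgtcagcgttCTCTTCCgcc
RPL10A (chr6:35468381-35468410, plus strand): gcgcatgcgcaagacatgctagtctctttt
TMSB10 (chr2:84905636-84905665, plus strand): ggggcgggcgccgctcttttgtttcttgct
GAPDH (chr12:6535244-6535273, plus strand): tgcgcagcgggtgcatccctgtccggatgc
FTL (chr19:48965289-48965318, plus strand): cgccctagccacgtcccctcgcagttcggc

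A C followed by 5 pyrimidines was searched on the gene's own strand, within the window from 5 bases before to 5 bases after the start. A run counted where a C and 5 pyrimidines lay inside this window, also if the run reached beyond it. Runs with fewer such bases inside were not counted. The motif was present at 67.6% of the 68 matched promoters of expressed ribosomal proteins, EEF1A1 and EEF2. It was present at 5.82% of all 15402 promoters that matched a nuclear coding gene and at 6.97% of those of expressed genes. For the 74 matched genes at 1000 TPM or more the share was 41.9%. These 74 are not a separate set, because they include ribosomal protein genes, of which 42 had a mean of 1000 TPM or more. The motif overlaps no other motif searched here. EEF1A1, which brings aminoacyl-tRNA to the ribosome, stood at 4694, 4446 and 4251 TPM, and EEF2, which moves the ribosome along the message, at 3985, 3938 and 3138 TPM. The paralogue EEF1A2, known from neurons and muscle, reached 776, 742 and 589 TPM.

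Genes of mitochondrial DNA held 6.57%, 5.83% and 6.64% of counts and, on the length-scaled TPM scale, 19.4%, 17.2% and 19.3% of TPM. The subunits of cytochrome c oxidase led, with COX2 at 35905, 35105 and 36665 TPM and COX3 at 33483, 29916 and 33466 TPM. ND6, the only one of the 13 encoded on the light strand, was lowest at 662, 464 and 974 TPM and had the highest value in control 3. Control 2 had the lowest TPM for 10 of the 13, and control 3 for ND4L, ND5 and ATP8. Nuclear genes of mitochondria were broadly present: 36 of 37 complex I subunits and 75 of 77 mitochondrial ribosomal proteins were expressed.

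Long noncoding RNAs were sparse, with 815 of 14864 (5.48%) at 1 TPM or more in every control. Hosts of small nucleolar RNAs filled much of the top: SNHG29 was at 273, 267 and 358 TPM, SNHG19 at 140.3, 169.8 and 193 TPM and SNHG6 at 128, 131 and 193 TPM. For these 3 genes control 3 held the highest value. DANCR was at 134, 122.96 and 137 TPM, FLJ20021 at 123.1, 133 and 122.8 TPM and ELFN1-AS1 at 107, 104 and 99.7 TPM. The other members of the top 10 were SNHG16, LOC124900418, VPS9D1-AS1 and SNHG1, with means from 86.0 to 99.8 TPM.

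Epithelial genes were the most completely expressed of the lineage lists. Of 20 epithelial genes 19 were expressed, against the 52.1% of all coding genes, and their median level was 109 TPM. The simple-epithelium keratins dominated: KRT19 was at 3338, 3773 and 3588 TPM, KRT8 at 2798, 3122 and 2754 TPM and KRT18 at 2717, 3028 and 2915 TPM. KRT8 and KRT18 form an obligate pair of filament proteins, and their TPM ratio was 1.00 ± 0.0494 (SD, n = 3). This ratio rests on annotated exon lengths of 6881 bases for KRT8 and 3218 for KRT18. Their counts were unequal, at 268458 for KRT8 and 119553 for KRT18. The adhesion molecule EPCAM was at 118, 119 and 137 TPM and the adherens junction protein CDH1 (E-cadherin) at 30.2, 29.7 and 30.2 TPM.

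P-cadherin (CDH3) exceeded E-cadherin in every control, at 98.0, 99.1 and 81.1 TPM, a ratio of 3.09 ± 0.349. The membrane protease ST14, its inhibitors SPINT1 and SPINT2 and the tight junction claudins CLDN4 and CLDN7 all lay between 145 and 215 TPM. The splicing regulators ESRP1 and ESRP2, which keep the epithelial isoform programme, were at 42.3, 35.5 and 39.6 TPM and 33.8, 29.1 and 24.5 TPM.

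Among junction genes 27 of 44 were expressed (61.4%, against 52.1% of all coding genes). The desmosome and adherens plaque protein JUP led at 392, 381 and 330.3 TPM, followed by the claudins above. The tight junction scaffold TJP1 was at 9.09, 7.65 and 6.45 TPM and occludin (OCLN) at 2.70, 1.80 and 1.57 TPM. CLDN1 had 1 count, and the connexin GJA1 had none, while the epidermal connexin GJB5 was at 38.5, 41.9 and 39.7 TPM.

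Of the 10 markers set for colorectal epithelium, EPCAM, CDH1, KRT8, KRT18, KRT19 and CDX2 were expressed. CDX1, CDH17, LGALS4 and VIL1 were not, so the label of the line is met by its epithelial markers and not by those of mature intestine.

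The transcription factors of the gut were split. SOX9, a crypt factor, was at 43.7, 38.5 and 41.7 TPM, FOXA3 at 30.02, 24.7 and 28.8 TPM and the hindgut determinant CDX2 at 22.0, 25.8 and 22.7 TPM, and the ranges of FOXA3 and CDX2 overlapped. KLF5, a factor of proliferating crypt cells, was at 16.1, 15.5 and 16.2 TPM. In contrast, HNF4A was at 0.391, 0.369 and 0.546 TPM, and CDX1, GATA4 and NEUROG3 had no count in 3 libraries. In all, 8 of 20 such factors were expressed (40%, against 52.1% of all coding genes). Of the 20, 7 were not detected, a share near the 32.2% of all coding genes.

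Few genes of mature colon cells reached the threshold. Of 25 enterocyte and colonocyte genes 3 were expressed, of 20 goblet genes 1 (MUC1, a membrane mucin), and of 18 enteroendocrine and tuft cell genes 1 (SYP, a vesicle protein). Not detected were 13, 8 and 10 of these, against 32.2% of all coding genes, and the remainder had low counts. The expressed enterocyte genes were carbonic anhydrase CA2 at 31.7, 31.6 and 29.3 TPM, the keratin KRT20 at 1.96, 4.35 and 1.97 TPM and the adhesion molecule CEACAM1 at 2.16, 1.64 and 1.13 TPM. Control 2 held the high KRT20 value, more than the sum of the other 2. Villin (VIL1), a microvillus protein, had 5 counts in all, and MUC2, the main intestinal mucin, had 14. There was no count for SI, ALPI, FABP2, CA1, MS4A12, GUCA2A, GUCA2B or CEACAM7.

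Stem and Paneth cell genes were mixed, with 11 of 21 expressed, a share near that of all coding genes. CD44, the hyaluronan receptor and Wnt target, was at 132, 136 and 120.3 TPM, and PTK7, a receptor-like kinase, at 50.6, 49.3 and 44.1 TPM. The RNA-binding protein MSI1 was at 17.4, 16.5 and 15.2 TPM and the ephrin receptors EPHB3 and EPHB2 at 8.36, 8.69 and 7.87 TPM and 7.70, 7.98 and 7.19 TPM. The crypt base markers LGR5 and OLFM4 had 1 and 3 counts in all, SMOC2 had none, and ASCL2 had 2. The Paneth cell defensins DEFA5 and DEFA6 had no count.

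**Figure D2:**
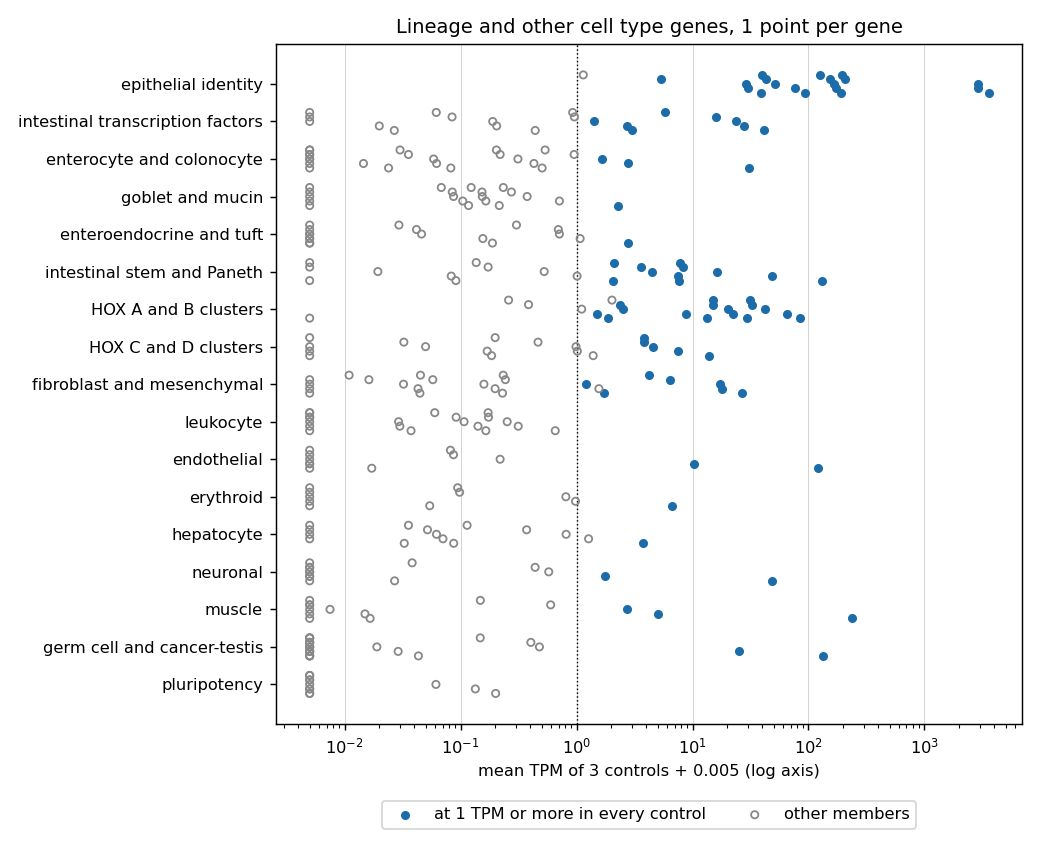
Mean TPM of 3 controls plus 0.005 on a log axis, 1 point per gene in each list of lineage and other cell type genes, filled where the gene reached 1 TPM in every control. Epithelial genes lie almost entirely to the right of the dotted line at 1 TPM, while 20 of 20 leukocyte genes and 12 of 12 pluripotency genes lie to the left of it.

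HOX genes, which mark position along the body axis, were expressed in 16 of 21 cases in the A and B clusters and in 5 of 18 in the C and D clusters. These shares were 76.2% and 27.8%, against 52.1% of all coding genes. HOXB7 was highest at 79.4, 72.7 and 102 TPM, followed by HOXB8 at 69.8, 64.6 and 60.8 TPM and HOXA7 at 44.9, 43.7 and 38.7 TPM. HOXB13, a marker of the posterior gut and prostate, was at 20.3, 20.6 and 19.3 TPM. In the C cluster HOXC9 reached 13.6, 12.2 and 16.1 TPM, and in the D cluster only HOXD8, at 4.02, 3.51 and 3.96 TPM, was expressed. HOXD9, HOXD11 and HOXD13 had no count. HOXD3, HOXD4 and HOXC5 share 59.9% to 80.5% of their exon length with another annotated gene on the same strand, so their low values are uncertain.

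Most markers of other cell types were below the threshold. None of 20 leukocyte genes was expressed, their summed level ran from 1.903 to 2.48 TPM, and PTPRC, CD3E, MS4A1 and CD14 had no count. Of 24 fibroblast and mesenchymal genes 7 were expressed (29.2%, against 52.1% of all coding genes). Of the 24, 9 were not detected, a share not far above the 32.2% of all coding genes. The defining fibroblast genes DCN, FAP and PDGFRA had no count, nor did the mesenchymal cadherin CDH2, and vimentin (VIM) was at 1.45, 2.26 and 1.41 TPM. The collagen COL1A1 was at 4.01, 4.26 and 4.29 TPM. Beside VIM and COL1A1, the expressed ones were the smooth muscle actin ACTA2 at 6.80, 6.96 and 5.36 TPM, fibronectin (FN1) at 1.32, 1.22 and 1.04 TPM, the actin-binding TAGLN at 28.9, 27.6 and 23.3 TPM, the matrix protein SPARC at 19.7, 17.8 and 16.3 TPM and the repressor SNAI1 at 17.2, 18.7 and 15.5 TPM. None of 12 pluripotency genes was expressed, and POU5F1, SOX2 and NANOG had no count.

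Single genes of other lineages stood out by level. TNNT1, slow skeletal troponin T, was at 245, 244 and 217 TPM. Desmin (DES) at 3.67, 6.68 and 4.69 TPM and myoglobin (MB) at 3.09, 2.84 and 2.28 TPM were the others of 3 expressed among 14 muscle genes, while MYOD1, MYOG and MYH7 had no count. EGFL7, known from endothelium, was at 118, 124 and 119 TPM, and the adhesion molecule ESAM at 11.9, 10.8 and 8.35 TPM, which makes 2 of 12 endothelial genes expressed, while TEK, FLT1, ERG and CLDN5 had no count and CDH5 had 1. The cancer-testis antigen MAGEA3 was at 133, 141 and 129 TPM and PRAME at 24.9, 26.8 and 24.3 TPM. In contrast, 19 of the 23 genes in the germ cell list were not detected, against 32.2% of all coding genes. MAGEA3 and MAGEA6 are near-identical copies, so their split (0.827, 0 and 0.595 TPM for MAGEA6) is uncertain. Brain creatine kinase CKB was at 934, 1020.1 and 998 TPM and neuronal enolase ENO2 at 49.7, 52.8 and 41.6 TPM. Of 14 neuronal genes 10 were not detected, against 32.2% of all coding genes.

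Olfactory receptor genes, which are used in sensory neurons, were nearly all at 0. Of 387 olfactory receptor genes 4 were expressed (1.03%), and all 4 lie beside the beta-globin genes. They were chosen after their values were seen. OR51B4 (chr11:5301014-5301946) was at 30.4, 21.0 and 19.2 TPM and OR51B5 (chr11:5303444-5505652) at 20.5, 18.05 and 19.8 TPM. OR51B2 was at 3.28, 1.44 and 2.12 TPM and OR51I1 at 2.096, 2.14 and 2.81 TPM, on 29 and 30 counts in all. Fetal globin HBG2 was at 8.64, 5.08 and 6.06 TPM, and the erythroid genes HBB, HBD and ALAS2 had no count. In GENCODE 29 (GRCh38) the gene model of HBG2 spans 5253190 to 5505605 and that of OR51B5 reaches up to 5505652. Both are on the minus strand, where the higher coordinate is the start, so the models start close together. The 4 receptor genes lie within, or overlap, the HBG2 model and are on its strand, while OR51B6, OR51M1, OR51Q1, OR51I2 and OR52D1, on the plus strand in the same span, had no count. What these reads stem from was not tested. Of the 27 olfactory receptor genes within 500000 bases of HBB the other 23 were not expressed. HBG2 shares 57.3% of its exon length with another gene on the same strand and has the near-identical copy HBG1, so its level is uncertain.

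Genes known to be mutated in HCT116 were mostly read at modest levels, 14 of 17 being expressed (82.4%, against 52.1% of all coding genes). PIK3CA, the catalytic subunit with the activating mutation, was at 0.866, 0.466 and 0.826 TPM, below the threshold in every control. CTNNB1 was at 46.3, 43.1 and 36.1 TPM, BAX at 97.0, 96.9 and 103 TPM and TGFBR2 at 6.81, 4.70 and 4.02 TPM.

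Levels moved with base composition across genes, which touches these comparisons. In the quintile of coding genes with the lowest transcript GC content (29.6% to 41.3%) 45.5% were expressed, at a median of 4.75 TPM. In the highest quintile (58.4% to 76.8%) 59.7% were expressed, at a median of 24.6 TPM. Transcript GC content was 34.8% for PIK3CA. The part of GC content in the level of single genes was not tested.

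The replication clamp PCNA was the highest of the 11 listed mismatch repair genes, at 448, 448 and 471 TPM. MSH6, which recognises base mismatches, was at 25.6, 22.5 and 23.1 TPM, above the median of 12.3 TPM over expressed coding genes. The endonuclease subunit PMS2 was at 6.04, 5.38 and 3.91 TPM and PMS1 at 3.23, 1.32 and 2.56 TPM, in ranges that did not overlap. MSH3, which is also mutated in this line, was at 0.413, 0.296 and 0.208 TPM on 22 counts. It was not among the 7 of 11 that were expressed (63.6%, against 52.1% of all coding genes).

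Of the 28 listed genes of the DNA damage response and growth arrest 25 were expressed (89.3%, against 52.1% of all coding genes). GDF15, a secreted stress cytokine, was highest at 408, 453 and 475 TPM, followed by the cell cycle inhibitor CDKN1A (p21) at 375, 351 and 324 TPM. The mitochondrial reductase FDXR was at 107, 129.6 and 119 TPM and the damage sensor DDB2 at 63.1, 63.9 and 58.3 TPM. MDM2, a ubiquitin ligase, was at 8.25, 5.05 and 8.50 TPM, lower in control 2 than in the others. TP63 and SPATA18 had no count. The inhibitors of cyclin-dependent kinases were all expressed, 7 of 7, and CDKN2A, of which HCT116 is known to carry a frameshift allele, was at 27.1, 33.9 and 30.3 TPM.

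Wnt components were expressed in 34 of 53 cases (64.2%, against 52.1% of all coding genes). The secreted inhibitor DKK1 led at 433, 378 and 405 TPM, and the targets MYC and CCND1 were at 201, 188 and 156 TPM and 162, 158 and 165 TPM. The effector TCF7L2 was at 28.3, 26.1 and 30.3 TPM, while LEF1 had 4 counts. Feedback targets were low, with AXIN2 at 3.50, 3.44 and 3.86 TPM and NKD1 at 1.62, 1.76 and 1.38 TPM, and the tumour suppressor APC was at 2.60, 1.18 and 1.50 TPM. The extracellular Wnt antagonists SFRP1, SFRP2, SFRP5 and WIF1 had no count. Of the ligands, WNT10B was highest at 15.8, 15.1 and 16.02 TPM.

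TGF beta and BMP signalling genes were expressed in 17 of 22 cases (77.3%, against 52.1% of all coding genes). All were below 25 TPM apart from the ligand TGFB1 at 77.2, 80.1 and 63.7 TPM. The signal transducers SMAD3 and SMAD4 were at 22.6, 22.0 and 17.6 TPM and 3.00, 2.47 and 3.90 TPM. The type I receptors ACVR1B and TGFBR1 were at 14.7, 16.1 and 12.96 TPM and 4.71, 2.77 and 3.48 TPM.

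In a list of 30 genes known to be silenced by promoter methylation in colon cancers, 15 were not detected (50%, against 32.2% of all coding genes) and 11 were expressed (36.7%, against 52.1%). The silent members included the mitotic checkpoint gene CHFR with 2 counts, and the protease inhibitor TFPI2, the integrin ITGA4, GATA4, BMP3, NEUROG1 and SLC5A8 with none. MGMT, a repair enzyme often silenced in other tumours, was at 8.94, 8.48 and 8.69 TPM, SEPTIN9 at 154, 153 and 135 TPM and RUNX3 at 33.8, 32.0 and 28.3 TPM. DNMT1, which copies methylation onto new DNA, was at 67.8, 64.8 and 44.6 TPM, DNMT3B at 10.5, 11.9 and 9.33 TPM and DNMT3A at 2.12, 1.67 and 1.99 TPM, and the 3 ranges did not overlap. TET1 and TET2, which oxidise methylcytosine, were below 1 TPM. DNA methylation was not measured in these libraries.

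Promoters differ in how many CG pairs, the target of DNA methylation, they hold. The 150 bases before the start are shown for 2 abundant genes, for CHFR, TFPI2 and SFRP2 as members of the list above that were not detected, and for the leukocyte gene PTPRC as a CG-poor gene with no count, with each CG pair in capitals (RefSeq, GRCh38.p14).
TMSB10 (chr2:84905506-84905655, plus strand): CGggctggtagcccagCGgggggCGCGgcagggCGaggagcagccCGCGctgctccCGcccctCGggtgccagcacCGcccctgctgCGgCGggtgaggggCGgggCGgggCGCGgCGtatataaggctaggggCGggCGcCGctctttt
S100A6 (chr1:153535992-153536141, minus strand): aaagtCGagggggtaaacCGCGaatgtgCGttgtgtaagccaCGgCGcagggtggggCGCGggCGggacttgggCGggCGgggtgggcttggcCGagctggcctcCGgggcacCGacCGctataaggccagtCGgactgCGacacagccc
CHFR (chr12:132887606-132887755, minus strand): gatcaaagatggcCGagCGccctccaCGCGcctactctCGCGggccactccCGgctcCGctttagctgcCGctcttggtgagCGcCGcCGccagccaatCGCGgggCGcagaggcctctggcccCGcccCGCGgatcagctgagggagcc
TFPI2 (chr7:93890754-93890903, minus strand): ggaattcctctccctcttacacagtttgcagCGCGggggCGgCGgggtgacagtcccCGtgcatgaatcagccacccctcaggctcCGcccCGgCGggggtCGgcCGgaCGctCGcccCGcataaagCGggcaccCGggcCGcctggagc
SFRP2 (chr4:153789084-153789233, minus strand): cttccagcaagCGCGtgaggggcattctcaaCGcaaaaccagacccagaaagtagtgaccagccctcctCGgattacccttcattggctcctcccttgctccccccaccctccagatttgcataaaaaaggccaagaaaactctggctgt
PTPRC (chr1:198638890-198639039, plus strand): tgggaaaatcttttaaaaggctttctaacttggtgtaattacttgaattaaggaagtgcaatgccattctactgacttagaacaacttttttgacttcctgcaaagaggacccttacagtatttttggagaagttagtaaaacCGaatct

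These windows held 20 CG pairs for TMSB10, 17 for S100A6, 18 for CHFR, 16 for TFPI2, 4 for SFRP2 and 1 for PTPRC. The counts of CHFR and TFPI2 lie near those of the abundant genes, and that of SFRP2 does not. Over the 250 bases before the start the ratio of observed to expected CG pairs was 0.825 for TMSB10, 0.972 for CHFR, 0.531 for SFRP2 and 0.174 for PTPRC. Among matched promoters the ratio was 0.6 or more for 83.7% of 8461 expressed genes, 59.6% of 2436 genes between the thresholds and 29.7% of 4505 genes not detected, against 64.1% of all. The hexamer TATAAA, searched on the gene's strand from 40 to 20 bases before the start, was present at 1.49% of promoters of expressed genes, 7.64% of those of genes not detected and 3.62% of all. The share was also high at the other end of the range, at 9.46% of the 74 genes at 1000 TPM or more, and it was 3.09% of the 905 at 100 TPM or more.

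**Figure D3:**
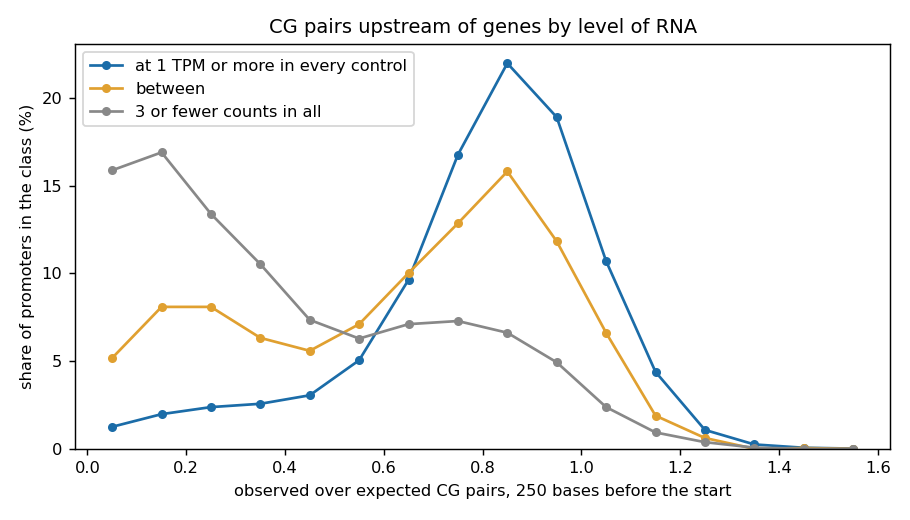
Share of promoters (%) against the ratio of observed to expected CG pairs in the 250 bases before the start, in steps of 0.1, for genes expressed in every control, genes between the thresholds and genes not detected. The expressed genes peak in the step from 0.8 (22.0% of 8461 promoters), and the genes not detected are most frequent below 0.3.

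Growth factor receptors were expressed in 22 of 36 cases (61.1%, against 52.1% of all coding genes). EPHA2 was highest at 108, 108 and 86.0 TPM, followed by the collagen receptor DDR1 at 97.1, 95.2 and 79.4 TPM and EPHB4 at 65.8, 72.0 and 64.2 TPM. The FGF19 receptor FGFR4 was at 57.8, 61.5 and 48.7 TPM, and its ligand FGF19 at 83.3, 78.0 and 74.3 TPM. MET was at 47.1, 38.2 and 44.0 TPM, ERBB2 at 32.6, 35.8 and 31.1 TPM, and EGFR at 8.28, 7.28 and 6.23 TPM. The EGFR ligands AREG and EREG were at 27.2, 30.6 and 27.9 TPM and 21.8, 15.6 and 18.3 TPM. KIT, ALK, ERBB4 and PDGFRA had no count.

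Below the receptors, 14 of 15 RAS, RAF, MEK and ERK genes were expressed (93.3%, against 52.1% of all coding genes). HRAS was at 196, 211 and 202 TPM and NRAS at 12.7, 7.02 and 15.0 TPM, and BRAF at 1.099, 0.845 and 0.870 TPM straddled the threshold. The kinase pair MAP2K2 and MAP2K1 differed: MAP2K2 was at 116, 127 and 115 TPM against 27.4, 21.4 and 25.1 TPM for MAP2K1. The kinase MAPK3 was at 77.7, 80.6 and 71.3 TPM.

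The study's design includes docking of LT4 to PI3K gamma, whose catalytic subunit is encoded by PIK3CG. PIK3CG (chr7:106865278-106907145, GENCODE 29 on GRCh38) had 1 count, in control 1, and was not detected by the rule above. The other class I catalytic subunits were ordered PIK3CD at 7.92, 7.14 and 7.17 TPM, PIK3CB at 5.75, 4.87 and 4.97 TPM and PIK3CA, and these 3 ranges did not overlap. PIK3CD was 11.1 ± 3.71 times PIK3CA (SD, n = 3). The gamma-specific regulatory subunits PIK3R5 and PIK3R6 were at 0.586, 0.330 and 0.561 TPM and at 0 counts. The regulatory subunit PIK3R1 was at 2.09, 1.34 and 2.46 TPM. PIK3R2 is listed at 0, but shares 87.2% of its exon length with another annotated gene on the same strand, so its level is uncertain. AKT1 was at 68.3, 66.4 and 54.6 TPM and AKT2 at 16.8, 17.1 and 15.4 TPM, in ranges that did not overlap.

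**Figure D4:**
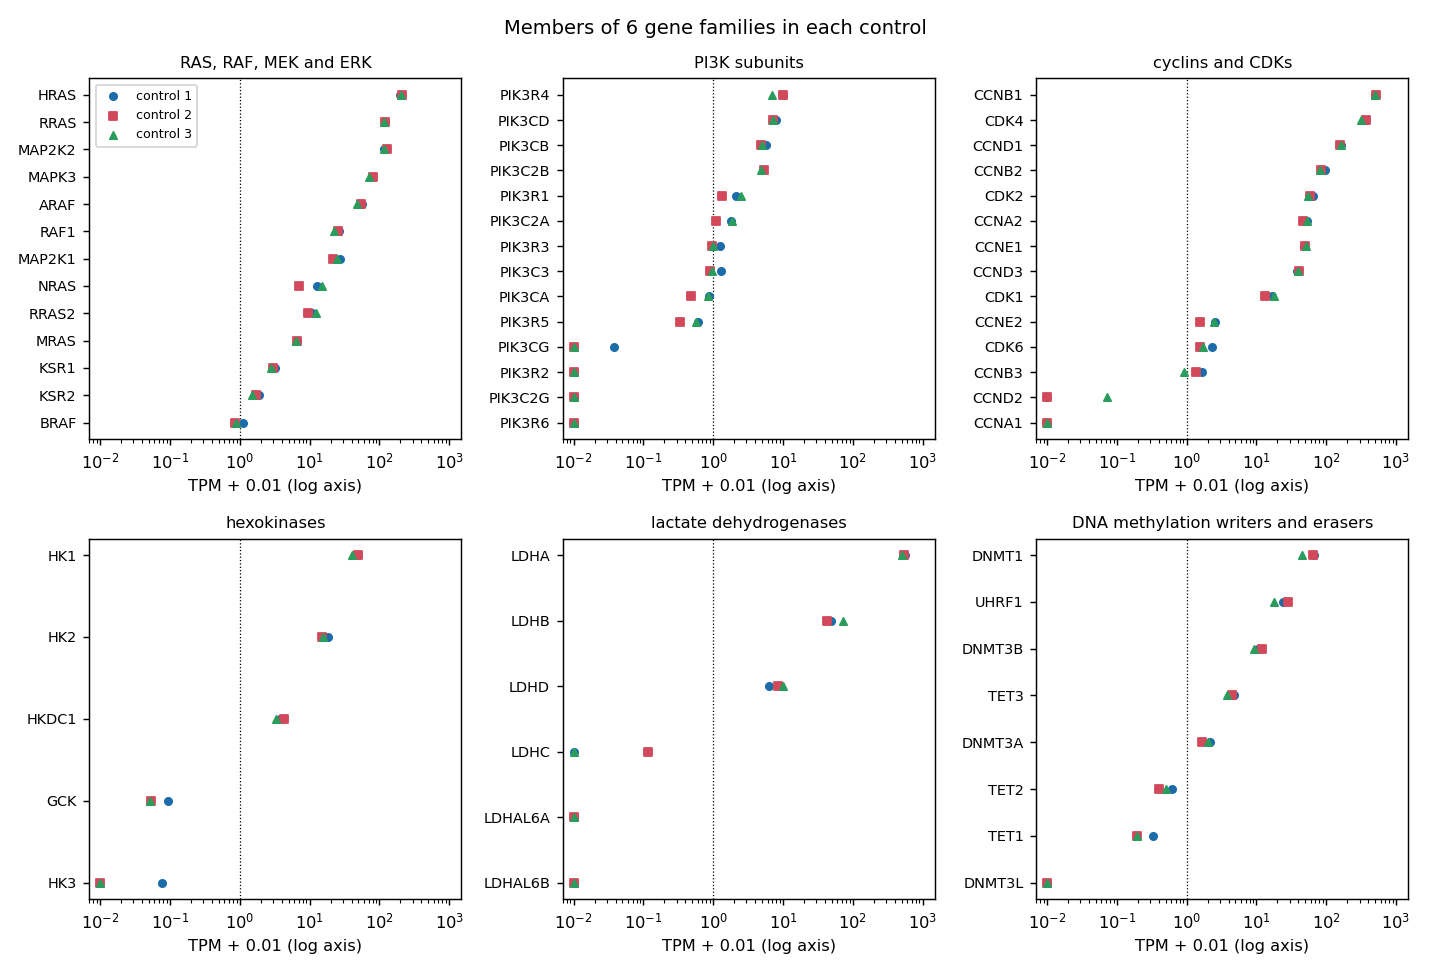
TPM plus 0.01 on a log axis for members of 6 gene families, 1 symbol per control, with a dotted line at 1 TPM. Levels within a family span several steps of the log axis: LDHA lies above 500 TPM and LDHAL6A at 0 in every control, and PIK3CG has a value above 0 in control 1 alone.

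Proliferation genes were uniformly present. All 22 replication and mitosis genes were expressed, with a median of 162 TPM. CDC20, an activator of the anaphase-promoting complex, led at 1155, 1164 and 992 TPM, followed by the helicase subunit MCM7 at 663, 615 and 512 TPM and cyclin CCNB1 at 492, 512 and 492 TPM. CDK4 was at 355, 369.9 and 319.9 TPM against 2.33, 1.56 and 1.72 TPM for CDK6. CCND1 exceeded CCND3 4.09 ± 0.143 times, while CCND2 had 2 counts and CCNA1 none. Telomerase reverse transcriptase (TERT) was at 2.05, 2.098 and 1.43 TPM.

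Glycolytic isozymes were uneven in level. ENO1 was at 2739.6, 2759 and 2228 TPM, 53.7 ± 1.41 times ENO2, and PKM at 1572, 1583 and 1336 TPM against 1 count for PKLR, the liver and red cell form. LDHA was at 555, 546 and 515 TPM and LDHB at 48.6, 42.8 and 72.9 TPM. HK1 was at 49.5, 49.0 and 40.2 TPM and HK2 at 18.1, 15.0 and 15.6 TPM, and the glucose transporter SLC2A1 at 99.4, 93.5 and 83.1 TPM. ALDOA, listed at 16.7, 15.9 and 13.02 TPM, and LDHB share 42.3% and 33.4% of their exon length with another gene on the same strand. Cholesterol synthesis genes were expressed in 17 of 18 cases (94.4%, against 52.1% of all coding genes). Among them was FDPS, which makes farnesyl diphosphate, at 173, 179 and 157 TPM.

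Cell death genes were expressed in 26 of 31 cases (83.9%, against 52.1% of all coding genes). Among the BCL2 family the survival factor with the highest level was BCL2L1 (BCL-XL) at 253, 254 and 214 TPM, against 69.5, 60.8 and 74.8 TPM for MCL1 and 0.355, 0.440 and 0.377 TPM for BCL2. The apoptosis inhibitor BIRC5 (survivin), which also serves mitosis, was at 219, 205 and 257 TPM, and the TRAIL receptors TNFRSF10B and TNFRSF10A were at 56.8, 55.2 and 48.1 TPM and 25.1, 25.2 and 23.8 TPM. The inflammatory caspase CASP1 had no count.

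Antigen presentation genes were expressed in 16 of 24 cases (66.7%, against 52.1% of all coding genes), led by class I. HLA-C was at 481, 471 and 455 TPM and HLA-B at 187, 184 and 199 TPM. Their shared light chain B2M was at 65.4, 67.6 and 88.2 TPM, below both heavy chains in every control. The class II activator CIITA had 9 counts, and the checkpoint ligand CD274 (PD-L1) was at 0.750, 0.329 and 0.431 TPM. Of 25 cytokines and chemokines 5 were expressed: MIF at 701, 734 and 768 TPM, CXCL16 at 105, 106 and 96.6 TPM, IL18 at 58.3, 52.0 and 76.0 TPM, LIF at 26.7, 24.997 and 22.8 TPM and CSF1 at 1.55, 1.72 and 1.23 TPM. IL6, IL1B and TNF had no count, and CXCL8 had 6.

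Nuclear receptors were expressed in 23 of 48 cases (47.9%), near the share of all coding genes. The orphan receptor NR2F6 was at 103, 125 and 131 TPM, the clock repressor NR1D1 at 90.05, 89.6 and 67.7 TPM and the retinoic acid receptor RARG at 69.3, 65.6 and 52.1 TPM. The vitamin D receptor VDR was at 12.7, 12.9 and 10.1 TPM and PPARG, a regulator of lipid metabolism, at 17.9, 18.3 and 16.2 TPM. The sex steroid receptors ESR1 and PGR had no count.

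Drug metabolism genes were expressed in 12 of 32 cases (37.5%, against 52.1% of all coding genes). They were led by the glutathione transferase GSTP1 at 1377, 1506 and 1424 TPM and the quinone reductase NQO1 at 362, 385 and 378 TPM. The efflux pump ABCC1 was at 46.8, 46.4 and 40.8 TPM, while ABCB1 and ABCG2 were below 1 TPM in every control. CYP3A4, CYP3A5 and GSTM1 had no count. UGT1A1 and UGT1A6 are listed at 0 but share exons with their cluster on the same strand, so their absence is uncertain.

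Stress and serum response genes were uneven. Of 17 serum response genes 14 were expressed (82.4%) and of 16 stress genes 12 (75%), against 52.1% of all coding genes. IER3 was at 599.7, 688 and 672 TPM, FOSL1 at 163, 166 and 146 TPM and JUNB at 104, 123.5 and 123.01 TPM, whereas FOS was at 2.90, 1.98 and 1.32 TPM. ATF4, the translation-controlled regulator of amino acid stress, was at 547, 536 and 526 TPM and its target TRIB3 at 56.3, 63.7 and 58.4 TPM. The hypoxia gene CA9 was at 2.33, 0.700 and 0.138 TPM, on 17, 5 and 1 counts, and VEGFA was at 4.87, 4.16 and 3.38 TPM. TXNIP, a glucose-sensing inhibitor of thioredoxin, had 13 counts.

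Grouped by symbol, families ranged from nearly complete to absent. These symbol groups were drawn up after values had been seen. Of 39 proteasome subunits 36 were expressed, of 35 tRNA synthetases 34, of 63 RAB GTPases 42 and of 39 kinesins 25. Families in between included FOX factors (18 of 50), SOX factors (6 of 19), integrins (10 of 27) and collagens (9 of 44). Solute carriers (180 of 371) and numbered zinc finger genes (239 of 511) lay near the share of all coding genes. At the other end, 0 of 39 beta-defensins, 0 of 17 type I interferons, 0 of 27 taste receptors and 0 of 53 clustered protocadherins were expressed. Several clustered protocadherins share exons on the same strand, so their low values are uncertain. PCDHGA10, with 32.8% of its exon length shared, was at 1.39, 1.36 and 0.800 TPM, and PCDHAC2 has 45.4% shared. Keratin-associated proteins had 2 expressed members of 94, KRTAP3-1 at 12.5, 11.9 and 11.1 TPM and KRTAP2-3 at 8.05, 6.17 and 9.88 TPM, both on chromosome 17.

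Genes that share exons with another gene are given as listed, not as absent. Of all 19903 coding genes 1221 (6.13%) share 30% or more of their exon length with another gene on the same strand, and 821 of these were among the 6399 not detected (12.8%). EEF1G, an elongation factor subunit, is listed at 0 in every control with an overlap of 99.9%. CYP51A1, of cholesterol synthesis, is listed at 2.31, 3.00 and 0.816 TPM with 79.4%, and RPS10 has 39.4%. The treatment of such reads by the counting step is not given in the sources used here.

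The 3 controls differed from each other by more than counting error. The biological CV estimated by edgeR over 12763 genes was 10.9%. For genes at 1 to 3 TPM the median CV was 16.8%, where counting alone gives 13.3%. For genes at 1000 TPM or more it was 6.13%, against 0.665% from counting. Of the 5756 expressed genes at 10 TPM or more 3676 (63.9%) had a CV below 10%, and 28 had one above 30%. Each pair of libraries differed beyond sampling noise, the chi-square divided by its degrees of freedom being 5.94 for controls 1 and 2, 9.36 for 1 and 3 and 9.33 for 2 and 3.

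Deviations between the controls followed base composition and length. In the quintile of expressed genes with the lowest GC content the median log2 deviation from the mean of the controls was 0.05 in control 1, -0.18 in control 2 and 0.13 in control 3. In the highest quintile it was -0.04, 0.06 and -0.03. By exon length, control 1 went from -0.08 in the shortest quintile to 0.05 in the longest, and control 3 from 0.06 to -0.04. The part of these properties in single genes was not tested.

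**Figure D5:**
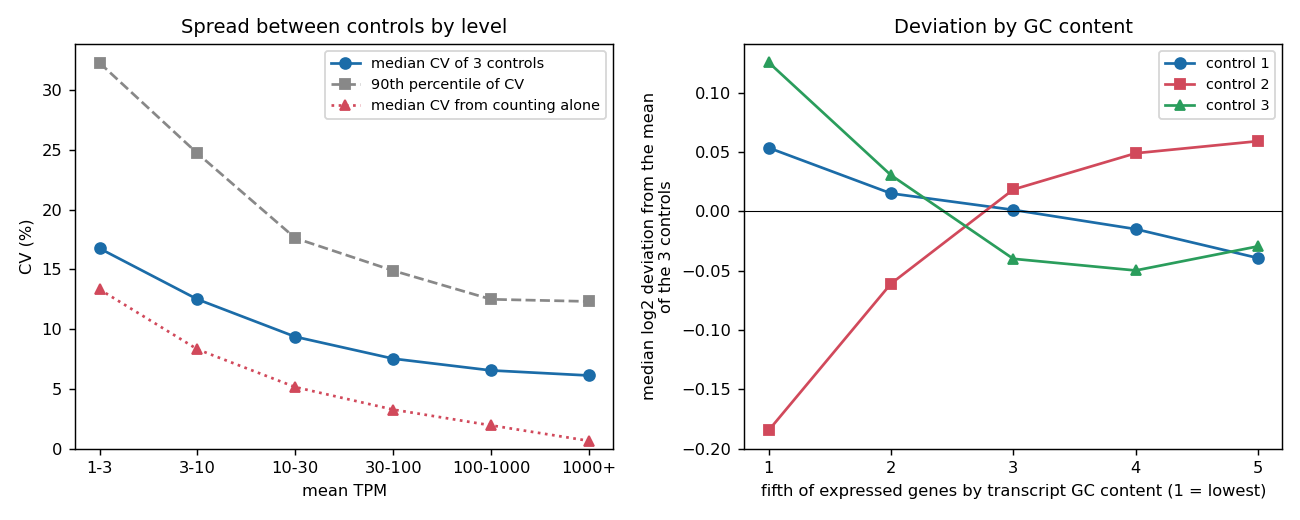
Left, CV (%) of 3 controls by mean TPM, as the median and the 90th percentile of genes, with the median expected from counting alone. Right, median log2 deviation of each control from the mean of the 3 in quintiles of expressed genes by transcript GC content, where control 2 is lowest (-0.18) in the quintile with the lowest GC content.

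The genes with the largest spread beyond counting error were mostly high in control 3. Of the 100 with the largest excess 71 had their highest value in control 3 and 54 their lowest in control 2. Over all 5756 genes these numbers were 1497 and 1432, and 3023 had their lowest value in control 3. The median GC content of the 100 was 43.6%, against 53.4% over all 5756. SMN1, of the spliceosome assembly complex, was at 6.75, 6.98 and 20.5 TPM and BOLA2B, of iron-sulphur protein assembly, at 12.9, 13.005 and 33.1 TPM. Each has a near-identical copy in the genome (SMN2 and BOLA2), so their values are uncertain. TAF13, a subunit of the general factor TFIID, was at 9.11, 6.10 and 17.9 TPM, and TMEM238 at 12.98, 17.5 and 33.2 TPM. SRP9, of the signal recognition particle, was at 36.8, 23.2 and 52.1 TPM and the respiratory chain subunit COX7C at 160.4, 151 and 278 TPM.

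The others of the 15 with the largest excess were NDUFC2, COA6, IDI1, TSPAN13, HSPA1A, NRAS, TMEM14B, ATG9A and RIDA. HSPA1A, a heat shock protein with the near-identical copy HSPA1B, ran the opposite way, at 20.1, 13.9 and 9.68 TPM, and so did ATG9A, an autophagy scramblase, at 21.8, 19.6 and 10.9 TPM, with 38.8% of its exon length shared. At the steady end among 1181 genes at 100 TPM or more, REEP4 was at 152, 151 and 151 TPM, PPDPF at 733, 734 and 738 TPM and SLC2A4RG at 163, 163 and 164 TPM. RPL28, RPL21, NDUFS5, RNF187, EIF5A, COPS6 and CD81 completed the 10 with the smallest CV, each below 1%.

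Several small RNAs without a poly(A) tail, which a poly(A) selection is meant to remove, were highest in control 2. Small nucleolar RNAs gave 29.03, 200.0 and 68.0 CPM in controls 1, 2 and 3, and small nuclear RNAs 6.42, 45.9 and 14.3. SNORD3A, which guides ribosomal RNA cleavage, had 54, 2009 and 440 counts, and RN7SL1, the RNA of the signal recognition particle, had 183, 1720 and 634. These classes were low. Together with small Cajal body, miscellaneous and ribosomal RNAs and ribosomal RNA pseudogenes they held at most 539.7 CPM in any control. Control 2 was highest and control 1 lowest for the nucleolar class, the nuclear class and both genes named. Other such RNAs did not follow this order: SNORD104 was at 5.77, 6.69 and 6.86 CPM. Histone genes, many of whose messages lack the tail, were at 2758, 2869 and 3145 CPM, highest in control 3. This sum was taken by symbol and not split into messages with and without the tail, so it does not measure RNA without the tail. The part of small RNAs in the levels of other genes was not tested.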

How the data were processed

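Poly(A) RNA of HCT116 cells was extracted with TRIzol and sequenced from TruSeq Stranded mRNA libraries, per the labels' protocols. The submitters' processing notes name fastp 0.20.0, HISAT2 2.1.0, SAMtools 1.9 and featureCounts of Subread 2.0.1 on GRCh38. The annotation release, the strand setting and the treatment of reads shared by genes were not found stated in the labels or notes used here. The authors deposited whole-number counts and TPM for 60623 Ensembl gene IDs. Of these, 58516 were found in GENCODE 29, which gave positions, gene types and exon overlap. Their tables also hold 2 per-sample columns that match no sample described and 9 columns of the authors' own comparison, none of which was used.

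The 3 control libraries held 12296916, 11954776 and 11653484 counts. Rows with no symbol kept their IDs. Genes were sorted into expressed (1 TPM or more in every control), not detected (3 or fewer counts in all) and between. TPM was used as deposited and summarised with Python 3.11.15, pandas 2.3.3 and numpy 2.4.6. The spread between controls was estimated with edgeR 4.0.16 in R 4.3.3 from the counts, as the common dispersion of a model with no groups after TMM scaling. The estimate was tested on simulated data. No test between groups was made, because 1 group was described. Levels were compared by the ranges of the 3 controls.

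Promoter sequences were taken from RefSeq (GRCh38.p14), in which 15402 of 19903 nuclear coding genes were matched by symbol or ID. Near-identical copies and genes with 30% or more of their exon length shared on 1 strand were treated as uncertain.

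The genes named were the 30 most abundant coding and 10 most abundant long noncoding genes, the leading and undetected members of each list, members of the feature and family lists, and the 15 most and 10 least variable genes. Some list members that fall under this rule are not reported here. Other genes were named for their known role after their values had been seen. The members and lists were chosen with earlier results of these data known. Alternatives were other TPM minimums, rescaled or recomputed TPM, CPM, another scaling or filter, thinned counts and leaving out each control.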

Additional observations from a re-analysis of the deposited data

How the results depend on the processing

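The number of expressed coding genes was 11292 at a minimum of 0.5 TPM and 7142 at 5 TPM, against 10377 at 1 TPM. It was 10806 with TPM rescaled over nuclear coding genes, 10421 with TPM recomputed from counts and exon lengths, and from 10453 to 10639 with each control left out. The share of the 10 most abundant genes was 8.19% by CPM and 13.6% of rescaled TPM, against 10.1%, and ranged from 10.0% to 10.3% with each control left out. The mitochondrial share was 18.6% of TPM against 6.35% of counts, and ranged from 6.20% to 6.61% of counts with each control left out. The biological CV ranged from 9.67% to 12.6% with each control left out and was highest without control 1. RLE scaling gave 10.9%, and dropping the filter on low counts 11.3%. Over all lists 593 of 1038 distinct members were expressed, 628 at 0.5 TPM and 466 at 5 TPM, and from 595 to 604 with each control left out. At 5 TPM the count moved by more than 1.5 times in 18 of 61 lists, and at 0.5 TPM in 4. Rescaling over nuclear coding genes multiplied every level by about 1.35, so the median level of the named abundant genes went from 3638 to 4890.0 TPM. With each control left out that median ranged from 3547 to 3865 TPM. Thinning to the shallowest control left 20000, 19428 and 20203 genes with a count.

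Depth limits low genes: 3 counts over the 3 libraries is 0.0836 CPM, and absence below that was not detectable. No paired analysis was possible because only 1 group was described and no test was made.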

Other observations

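Among enterocyte and colonocyte genes below the expression threshold, counts summed to 15, 37 and 61 in controls 1, 2 and 3. CEACAM5, an adhesion protein of colonic epithelium, was at 0.0657, 0.403 and 1.12 TPM, and the galectin LGALS4 at 0.0989, 0.505 and 0.896 TPM, both lowest in control 1. Hepatocyte genes below the threshold summed to 13, 55 and 11 counts, with the apolipoprotein APOA2 at 0.466, 3.10 and 0.234 TPM and AHSG, a plasma glycoprotein, at 0.298, 1.73 and 0.400 TPM, both highest in control 2. These genes were picked after their values had been seen, and the counts are too few to rank the libraries.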
